A study of Mus musculus with 32 samples.

Results

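Transcripts of 8 cytokine-related genes of the interleukin 1 (IL1), interleukin 6 (IL6) and tumour necrosis factor (TNF) systems were followed in mouse femur marrow: Il1b, Il1rn, Il1r2, Il6, Lif, Osm, Socs3 and Tnf. They were taken by name from the 41388 genes counted, and each of the 8 was found in every library's table. The 32 libraries hold RNA of whole femur marrow from C57BL/6 mice aged 2 months, with 4 mice in each of 8 groups and 1 library for each mouse. DTRADQ mice carry a Cre-dependent (floxed) diphtheria toxin receptor, iDTR, and the adiponectin-Cre transgene, so that cells with a history of adiponectin expression can be killed by diphtheria toxin (DT). Controls were littermates with the same receptor allele and no Cre. Mice of both genotypes were taken either untreated (no DT) or at day 1, 2 or 3 of daily intraperitoneal DT, at 100 ng per mouse, so the controls received the same toxin. The adiponectin-Cre lineage in marrow takes in stromal cells as well as adipocytes, and whole marrow does not tell them apart.

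IL1β, encoded by Il1b, is made by activated myeloid cells and signals through a receptor that drives NF-kB. Il1rn encodes the receptor antagonist that occupies that receptor without signalling, and Il1r2 encodes a decoy receptor that binds IL1β and transmits nothing; neutrophils express both. IL6, leukemia inhibitory factor (Lif) and oncostatin M (Osm) are ligands of receptors that share the gp130 chain (Il6st) and activate STAT3, and Socs3 is a STAT3-induced inhibitor that shuts gp130 signalling down. TNF is a myeloid and lymphoid cytokine whose receptors also activate NF-kB. In marrow, these ligands act on stromal cells and bone cells, and Osm is known to promote bone formation and to restrain adipocyte differentiation.

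In GRCm38 coordinates, Il1b lies on chromosome 2 at 129364570 to 129371139 (minus strand), Il1rn on chromosome 2 at 24336853 to 24351494 (plus strand) and Il1r2 on chromosome 1 at 40084768 to 40125219 (plus strand). Il6 lies on chromosome 5 at 30013161 to 30019968 (plus strand) and Tnf on chromosome 17 at 35199381 to 35202007 (minus strand). Osm, at 4236420 to 4241026, and Lif, at 4257557 to 4272514, are neighbours on the plus strand of chromosome 11, and Socs3 lies on the same chromosome at 117966079 to 117970047 (minus strand). The antisense gene Il1bos shares exon bases with Il1b, and the strand setting of the counting is not given in the sources used here. Il1b values are therefore uncertain to the extent that reads of the pair were mixed. Il1bos itself had group means between 0.707 and 1.34 CPM (counts scaled to a common library size), against 30.9 to 55.2 CPM for Il1b.

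Sequence before a RefSeq start of 3 genes is shown because they stand for different arms of the system. Il6 is a classical NF-kB target and Socs3 is the STAT3 feedback gene. Il1rn is the antagonist, whose DTRADQ libraries lay above all controls in scaled CPM on each day of DT, though no genotype test of it passed in the reported fit. The sequences run 5′ to 3′ and come from the RefSeq promoter table (GRCm38.p6). They cover the 250 bases before the RefSeq start, shortened where an exon of the counted gene model begins. The Socs3 window does not lie upstream of the counted gene: it falls inside the gene's span given above, and the bases after its RefSeq start were not found unbroken in an annotated transcript of the gene. Capitals mark matches to short motifs of NF-kB, AP-1, STAT factors, C/EBP and the cyclic AMP element, searched on both strands, whose letters follow after the sequences.
Il6, chr5:30012864-30013113, plus strand: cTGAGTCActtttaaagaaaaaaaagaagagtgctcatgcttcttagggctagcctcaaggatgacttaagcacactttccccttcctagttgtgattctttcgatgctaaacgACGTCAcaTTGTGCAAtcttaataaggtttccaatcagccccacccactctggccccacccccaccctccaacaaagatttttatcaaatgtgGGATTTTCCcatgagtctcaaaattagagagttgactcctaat
Il1rn, chr2:24336610-24336852, plus strand: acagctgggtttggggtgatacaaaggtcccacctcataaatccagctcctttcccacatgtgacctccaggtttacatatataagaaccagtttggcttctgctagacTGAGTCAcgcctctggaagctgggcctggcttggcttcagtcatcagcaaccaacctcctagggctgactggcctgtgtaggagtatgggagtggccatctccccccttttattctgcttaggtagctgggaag
Socs3, chr11:117969452-117969616, minus strand: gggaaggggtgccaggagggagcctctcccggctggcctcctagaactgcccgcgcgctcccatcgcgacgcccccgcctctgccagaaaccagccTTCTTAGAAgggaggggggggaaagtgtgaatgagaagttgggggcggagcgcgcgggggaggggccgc

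The Il6 window held the NF-kB letters, GGANTTTCC, at bases -43 to -35 from the start, and 1.07% of 32841 promoter windows of the same length held them too. It also held the AP-1 letters, TGANTCA, found in 6.75% of windows. The C/EBP letters in it, TTGNNCAA, were found in 5.65% of windows. Its core of the cyclic AMP element, TGACGT on the other strand, was found in 6.47%. Of 3 Il1rn windows in the table, the printed one lies before the first exon and had 1 match, to AP-1, at -141 to -135, and the other 2, further into the gene, had none. The Socs3 window had 1 match, to the STAT letters TTCNNNGAA, at -154 to -146, and 7.02% of all windows held those letters. Among the other members, the Il1r2 window had a match to the STAT letters and the Lif window one to AP-1. The windows of Il1b and Tnf had only the letters of the TATA box, TATAAA, as did 12.4% of windows. No 2 of the printed matches overlap. These matches describe the letters and are not measured binding sites. The table has no entry for Osm.

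Library totals ran from 8.97 to 22.93 M (mega) counts with a median of 14.18 M. In the controls without DT, libraries 3 and 4 stood apart: they had the smallest totals, their 10 most abundant genes took 37.41% and 50.69% of counts against 19.4% to 30.87% elsewhere, and S100a8 reached 100400 and 147700 CPM. The same libraries were low in several members, so the values without them stand beside the members' differences that rest on them; the setting without them was added after the data were seen. The ablation itself was plain in the adiponectin-lineage markers, of which 10 of 10 were lower in DTRADQ than in controls at days 1 and 2 and 8 of 10 at day 3, when 1 was higher.

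Per base of transcript, the 8 genes spanned a wide range whatever the group. In RPKM (reads per kilobase of transcript, scaled to library size), the medians over 32 libraries were 137.5 for Il1r2, 35.7 for Il1rn, 23.9 for Il1b, 3.71 for Tnf, 2.80 for Osm, 1.5 for Il6, 0.825 for Socs3 and 0.0694 for Lif. Decoy receptor and antagonist therefore stood above the IL1β transcript in this tissue: Il1r2 exceeded Il1rn in 32 of 32 libraries, and Il1rn exceeded Il1b in 31 of 32. The order was also the same in every library between Il1b and Tnf and between Socs3 and Lif. It was least fixed between Il6 and Socs3, where 24 of 32 libraries kept it, and between Tnf and Osm, where 27 did. Lif had between 0 and 12 counts in a library and was at 0 in 6 of them, and it was the 1 member left out by the filter on low counts.

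**Figure D1:**
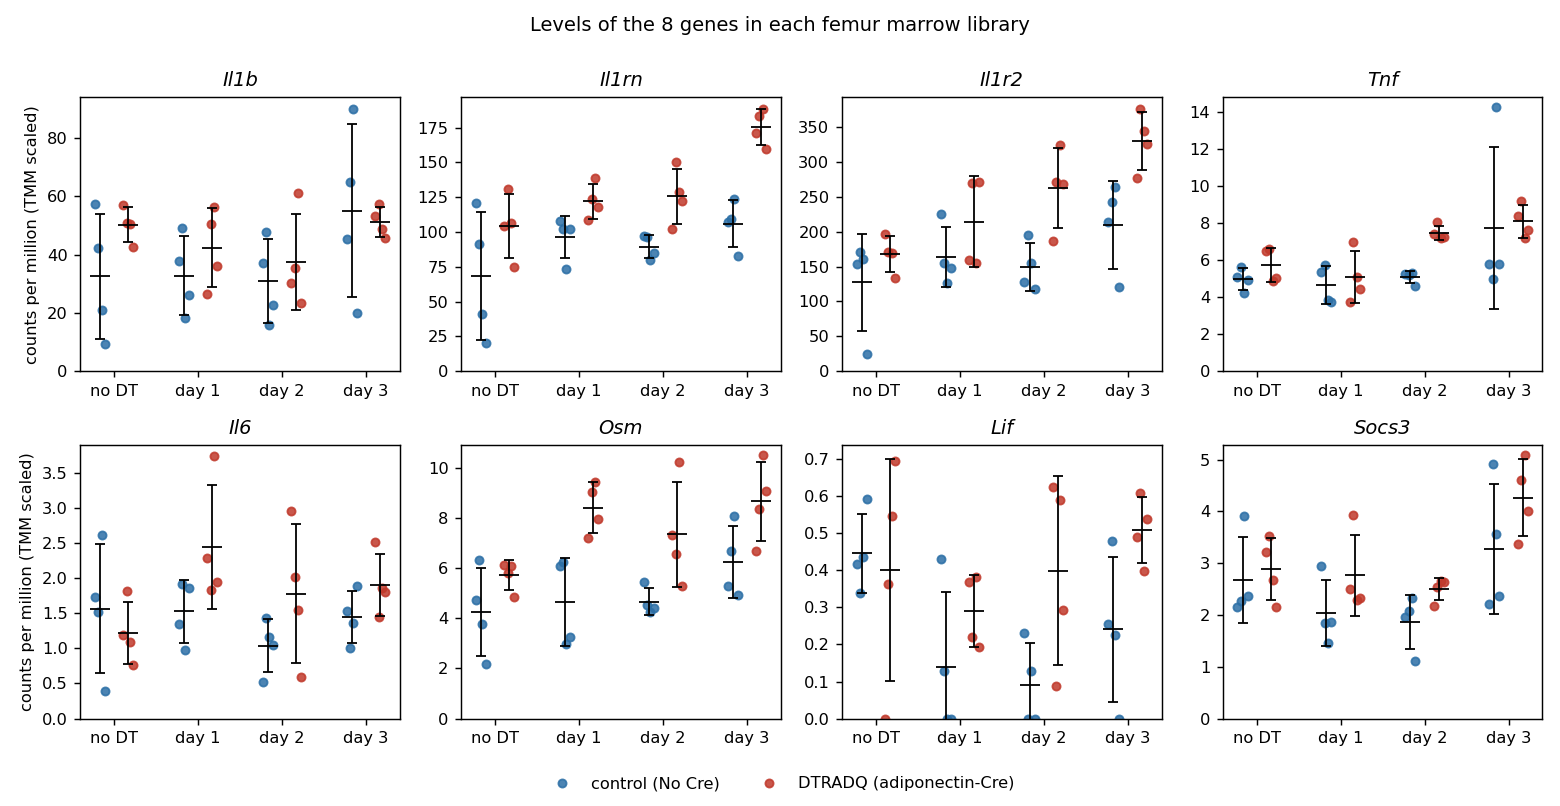
Each panel plots 1 gene: CPM with TMM scaling on the vertical axis (linear, from 0), the time point on the horizontal axis, 1 point per library, with the mean and SD of 4 libraries in black. Il1rn in DTRADQ at day 3 (159 to 188 CPM) and Osm in DTRADQ at day 1 (7.20 to 9.44 CPM) lie above all 4 control libraries of the same day.

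Of the 7 members tested, 1 passed the threshold between DTRADQ and controls at day 1 (Osm), while none passed at days 2 and 3 or in mice that had no DT. The threshold was an adjusted p under 0.05 in edgeR's quasi-likelihood test, with Benjamini-Hochberg adjustment over 14527 genes. Over all genes tested, 3.90%, 8.52% and 22.9% passed at days 1, 2 and 3, and 27.1% in the mice given no DT. The share without DT held only in the fit of all groups together: a fit of only the groups compared called 0 genes higher and 0 lower. In the reported fit, the members' share was thus below that of all genes except at day 1, where a single gene made it. Where 0 passed, an unadjusted p under 0.05 was reached by 1 member without DT, 3 at day 2 and 2 at day 3. DESeq2 called 0, 1 and 1 members there, and limma's voom with library weights called 0, 3 and 3. Over all 14527 genes, DESeq2 called 1955 higher and 2336 lower without DT, 979 and 721 at day 2, and 1671 and 2029 at day 3. Voom called 2088 and 2019, 1775 and 1833, and 2541 and 3183 in the same order. The median log2 difference of the 7 was 0.39 at day 1, 0.55 at day 2 and 0.40 at day 3, beside -0.01, -0.04 and -0.02 for all genes. Of the 7 estimates, 7, 7 and 6 were positive on those days. Without DT, the estimates ran from -0.39 for Il6 to 0.60 for Il1b, and only that of Il6 was negative. The middle one of the 7 was 0.36, for Osm. In the fit without the 2 control libraries that stood apart, the middle one was 0.05, for Il1r2.

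**Figure D2:**
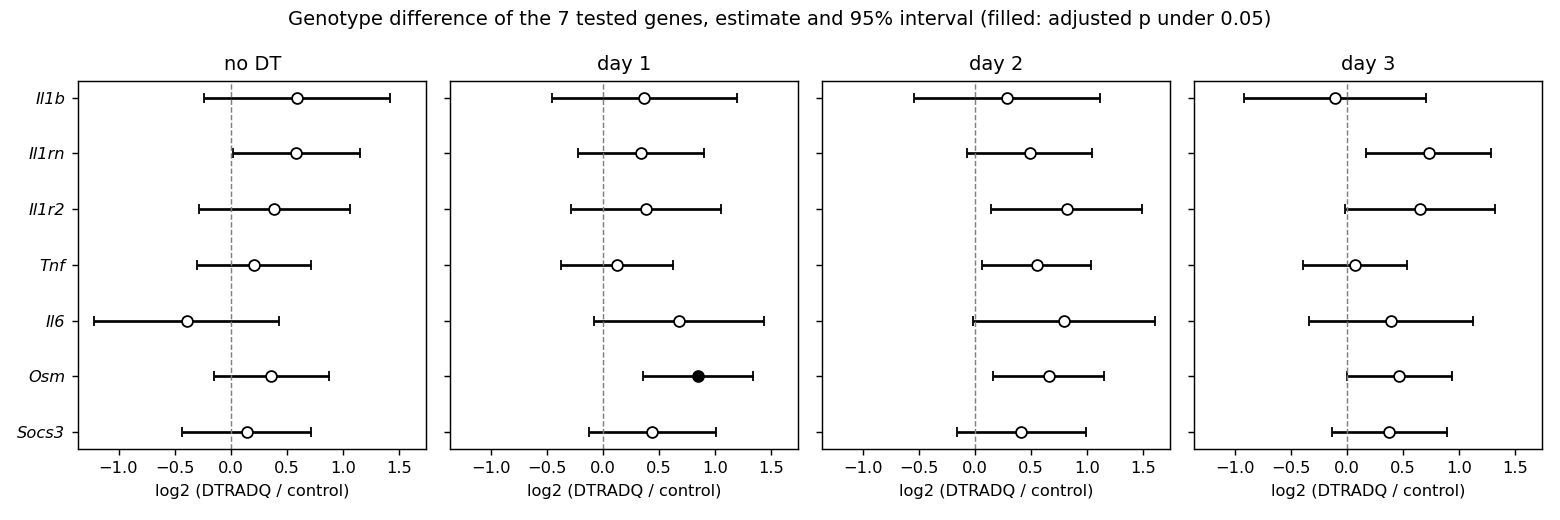
Log2 ratio of DTRADQ to controls (horizontal axis) for the 7 tested members at each time point, with 95% intervals from the edgeR fit; filled points have an adjusted p under 0.05. The filled point is Osm at day 1 (0.85), and most other intervals after DT lie mainly to the right of 0 but reach close to it or cross it.

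Osm, the gp130 ligand with roles in bone and fat, was the 1 member that passed between genotypes, and it did so at day 1 only. At day 1 it stood at 7.20, 9.05, 9.44 and 7.96 CPM in the 4 DTRADQ mice and at 6.07, 6.26, 2.99 and 3.26 CPM in the controls. All 4 DTRADQ libraries lay above all 4 control libraries, and the controls formed a higher and a lower pair. Osm was higher by 0.85 on the log2 scale (SE 0.24, 95% interval 0.36 to 1.34, adjusted p = 0.0377). The adjusted p missed the threshold when any of 5 libraries was left out (DTRADQ library 2, 3 or 4, or control library 3 or 4 of day 1), with a highest value of 0.1871. Over all 32 fits that left out 1 library, the log2 difference ran from 0.69 to 1.03. In whole marrow, more cells that express Osm and more Osm RNA per cell cannot be told apart, and this holds for every member.

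At day 2, Osm read 7.32, 6.55, 10.2 and 5.29 CPM in DTRADQ and 5.45, 4.53, 4.26 and 4.40 CPM in controls. The lowest DTRADQ library fell just under the highest control. The difference was 0.66 (95% interval 0.17 to 1.16, adjusted p = 0.0825). At day 3 the DTRADQ libraries held 6.70, 8.37, 10.5 and 9.08 CPM and the controls 5.29, 6.67, 8.08 and 4.95 CPM, which overlapped, with a difference of 0.47 (adjusted p = 0.1429). Without DT, Osm was at 6.12, 5.80, 6.09 and 4.85 CPM in DTRADQ and at 4.72, 6.33, 3.77 and 2.17 CPM in controls. The day 1 difference was not shown to exceed the difference without DT: the genotype-by-DT term was 0.49 (95% interval -0.22 to 1.20, adjusted p = 0.3869). It was 0.78 (adjusted p = 0.1342) without the 2 control libraries that stood apart and 0.93 (adjusted p = 0.0483) with voom and library weights.

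Il1rn, the antagonist, separated the genotypes on each day of DT when the TMM-scaled CPM of the libraries are read one by one. At day 1 its levels were 108.4, 124, 139 and 118 CPM in DTRADQ and 107.7, 102, 73.7 and 102 CPM in controls. The 2 groups were adjacent, without overlap, and the difference of 0.34 (95% interval -0.22 to 0.90, adjusted p = 0.5829) was small. At day 2 it was at 102, 150.0, 129 and 122 CPM in DTRADQ and at 96.8, 96.5, 79.9 and 84.8 CPM in controls, again without overlap (0.49, 95% interval -0.07 to 1.05, adjusted p = 0.2714).

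The widest gap came at day 3, when Il1rn stood at 171, 183, 188 and 159 CPM in DTRADQ and at 107, 109.6, 124 and 83.1 CPM in controls. The lowest DTRADQ library was clear of the highest control by more than the range within the DTRADQ group. The log2 difference was 0.73 (SE 0.27, 95% interval 0.17 to 1.29), and its adjusted p of 0.0529 just missed the threshold. The call turned on the fit: adjusted p was 0.0285 with DESeq2, 0.0352 with the replicate number as a block and 2.2e-04 without libraries 3 and 4 of the controls without DT, which are not part of the day 3 groups but share the fit; 34.4% of all genes passed in that fit. Leaving out single libraries gave adjusted p between 0.0050 and 0.1626, past the threshold in 8 of 32 fits.

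Il1r2, the decoy receptor, had the highest level per base and a similar order of groups. At day 2 it was at 186, 272, 325 and 269 CPM in DTRADQ and at 129, 195, 156 and 117 CPM in controls. A single DTRADQ library lay within the control range. The difference was 0.82 (95% interval 0.14 to 1.49, adjusted p = 0.1150), and 0.83 with an adjusted p of 0.0094 without the 2 control libraries named above, where 19.9% of all genes passed.

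At day 3 Il1r2 read 277, 376, 344 and 326 CPM in DTRADQ and 214, 243, 264 and 120.5 CPM in controls, with no overlap. The difference was 0.65 (95% interval -0.02 to 1.32, adjusted p = 0.1570), and 0.68 with an adjusted p of 0.0184 without those 2 libraries. At day 1 the groups overlapped widely, from 156 to 271 CPM against 127 to 226 CPM (0.39, adjusted p = 0.6092). In the deposited RPKM, the groups overlapped at day 3 too, at 192.0 to 275.5 in DTRADQ and 104.7 to 207.6 in controls.

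Il1b itself, the agonist, did not separate the genotypes on any day. At day 3 it stood at 53.1, 57.3, 48.6 and 45.7 CPM in DTRADQ and at 45.5, 65.0, 90.0 and 20.1 CPM in controls. The controls spread to both sides of a tight DTRADQ group. The difference was -0.11 (95% interval -0.92 to 0.71, adjusted p = 0.8772). At day 1 (26.6 to 56.3 against 18.3 to 49.0 CPM) it was 0.37 with an interval of -0.46 to 1.20, and at day 2 (23.4 to 61.2 against 15.9 to 47.7 CPM) 0.29 with an interval of -0.54 to 1.12. The intervals take in differences of either sign, so the tests do not show that the genotypes were alike in Il1b.

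The balance of antagonist to agonist was therefore read within each library, as Il1rn over Il1b in RPKM. At day 3 this ratio was 1.91, 1.90, 2.30 and 2.08 in DTRADQ and 1.40, 1.00, 0.816 and 2.46 in controls. DTRADQ was narrow and the controls spread on both sides of it. The group medians without DT were 1.17 in DTRADQ and 1.27 in controls, at day 1 they were 1.70 and 2.01, and at day 2 they were 2.25 and 1.89. The order of the genotypes thus differed between time points, and no group of ratios lay wholly above its control group.

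Tnf was at 7.40, 8.04, 7.21 and 7.24 CPM in DTRADQ and at 5.27, 5.18, 5.30 and 4.59 CPM in controls at day 2. Both groups were narrow and did not overlap. The difference was 0.55 (95% interval 0.07 to 1.04, adjusted p = 0.1407). At day 3 the DTRADQ libraries were at 8.39, 9.20, 7.21 and 7.62 CPM and the controls at 5.80, 5.0, 14.3 and 5.81 CPM. Control library 3 was far above the other 3 controls, which lay below every DTRADQ library. The difference was 0.07 (adjusted p = 0.8487) with that library and 0.55 (adjusted p = 0.0267) without it. At day 1 the ranges of 3.75 to 7.0 and 3.73 to 5.75 CPM overlapped (0.13, adjusted p = 0.8460).

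Il6 was a low transcript, with 2 to 49 counts in a library. At day 1 it stood at 2.28, 1.82, 3.73 and 1.94 CPM in DTRADQ and at 1.35, 1.92, 0.974 and 1.86 CPM in controls. Library 3 of DTRADQ was the highest of the 32, and the lowest DTRADQ library lay under the 2 upper controls. The difference was 0.68 (95% interval -0.08 to 1.44, adjusted p = 0.3721). At day 2 it was 0.79 (-0.02 to 1.60, adjusted p = 0.2097), with overlapping values of 0.587 to 2.96 CPM in DTRADQ and 0.522 to 1.42 CPM in controls. At day 3 it was 0.40 (adjusted p = 0.4639). The genotype-by-DT terms were the largest of any tested member at days 1 and 2, at 1.07 (95% interval -0.05 to 2.20, adjusted p = 0.2066) and 1.19 (0.03 to 2.35, adjusted p = 0.1735), and 1.07 and 1.20 without the 2 control libraries.

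Lif, the rarest member, was compared by an exact two-sided permutation test of 4 against 4 libraries, whose smallest possible p is 0.0286. At day 3 it was at 0.490, 0.609, 0.397 and 0.537 CPM in DTRADQ and at 0.256, 0.480, 0.226 and 0 CPM in controls. The highest control lay above the lowest DTRADQ library and below the other 3. The exact permutation p was 0.0571 (0.1403 adjusted over 54 values tested), after 0.1714 at day 1 and 0.1143 at day 2. Group means at day 1 were 0.290 ± 0.0974 and 0.139 ± 0.203 CPM, and at day 2 they were 0.398 ± 0.255 and 0.0902 ± 0.112 CPM (SD, n = 4). At this depth, values of this size rest on a few reads a library.

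Socs3, the feedback inhibitor, stayed within overlapping ranges on every day. At day 3 it was at 3.38, 4.60, 5.09 and 4.00 CPM in DTRADQ and at 2.22, 4.92, 3.57 and 2.37 CPM in controls. Control library 2 reached the upper DTRADQ values and library 3 the lowest. The difference was 0.38 (95% interval -0.13 to 0.89, adjusted p = 0.2951). It was 0.44 at day 1 (2.28 to 3.94 against 1.46 to 2.94 CPM, adjusted p = 0.4497) and 0.42 at day 2 (2.18 to 2.65 against 1.12 to 2.33 CPM, adjusted p = 0.3777).

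Counting libraries without overlap, Il1rn and Osm at day 1, Il1rn and Tnf at day 2 and Il1rn and Il1r2 at day 3 had all 4 DTRADQ libraries above all 4 controls, which makes 2 of 7 tested members on each day. Among all genes tested, 5.08%, 10.7% and 14.9% did so at days 1, 2 and 3. Without DT no tested member did, beside 5.64% of genes. With only 7 members, 1 gene more or less moves these shares by a wide margin. All these counts were made in TMM-scaled CPM. In the deposited RPKM, Il1rn overlapped at days 1 and 2 and Il1r2 at day 3, and the shares of all genes were not counted on that scale.

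Without DT, no tested member passed between the genotypes, and the levels of the 2 control libraries that stood apart show in the values. Il1rn was at 104, 131, 106 and 74.8 CPM in DTRADQ and at 121, 91.5, 41.0 and 20.6 CPM in controls. Libraries 3 and 4 were the lowest of all 32. The log2 difference was 0.59 (adjusted p = 0.1143), and -0.02 without those libraries. Leaving out control library 1 instead gave 1.00 and an adjusted p of 0.0026.

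Il1b followed the same order without DT, at 57.1, 51.0, 50.5 and 42.6 CPM in DTRADQ and 57.4, 42.4, 20.9 and 9.29 CPM in controls. Its difference was 0.60 with all libraries (adjusted p = 0.2927) and 0.02 without the 2. Il1r2 was low only in control library 4, at 24.1 CPM beside 154, 172 and 160.4 CPM (0.39, adjusted p = 0.4098, and 0.05 without the 2). Osm gave 0.36 (adjusted p = 0.3014) and 0.07 without the 2. Il6, Socs3 and Tnf differed by -0.39, 0.14 and 0.21 without DT, with adjusted p of 0.5091, 0.7499 and 0.5793. Without the 2 libraries these values were -0.39, 0.40 and 0.12.

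The difference of the genotype effect after DT from that without DT was called for 0 of 7 members on each day, beside 12.3%, 11.1% and 21.0% of all genes at days 1, 2 and 3. Unadjusted p was under 0.05 for 0, 1 and 0 members. DESeq2 called 0 on each day, and voom with library weights called 1, 0 and 0. Over all genes, voom called 1578 higher and 1887 lower at day 1. With only the groups compared, 209 genes were called higher and 240 lower at day 1, 189 and 167 at day 2, and 691 and 978 at day 3. Without the 2 control libraries, Il1rn at day 3 passed (0.77, adjusted p = 0.0139; 24.7% of genes passed), where the full set gave 0.14 (adjusted p = 0.8394). Il1r2 at day 3 gave 0.26 (adjusted p = 0.7376) and 0.62 (adjusted p = 0.1989) in the same pair of fits. The genotype difference did not pass between any 2 days of DT for any tested member: 0 of 7 in each comparison, beside 0% of genes for day 2 against day 1, 7.23% for day 3 against day 1 and 1.36% for day 3 against day 2, with 0 members at an unadjusted p under 0.05 and 0 by DESeq2 or voom.

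Within DTRADQ, Il1r2 and Il1rn rose from no DT to day 3. Il1r2 went from 196, 171, 169 and 134 CPM to 277, 376, 344 and 326 CPM, which is 0.98 on the log2 scale (SE 0.33, adjusted p = 0.0251). Il1rn went from 104, 131, 106 and 74.8 CPM to 171, 183, 188 and 159 CPM, or 0.75 on that scale (SE 0.28, adjusted p = 0.0381). Both rises were without overlap, and 2 of 7 members were called beside 29.4% of all genes. Osm reached 0.60 (adjusted p = 0.0536). Counting libraries in scaled CPM, 4 of 7 members (Il1rn, Il1r2, Osm and Tnf) had all 4 day 3 libraries above all 4 without DT, beside 17.5% of genes. In the deposited RPKM, Osm (2.738 to 4.446 against 2.191 to 2.906) and Tnf (4.225 to 5.498 against 3.167 to 4.325) overlapped.

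These calls were lost when single libraries were left out, Il1r2 in 3 of 32 fits (DTRADQ without DT library 3 or 4, or day 3 library 2) with adjusted p up to 0.0827, and Il1rn in 6 (DTRADQ without DT library 1, 3 or 4, or day 3 library 2, 3 or 4) with adjusted p up to 0.1361. The labels give the day 3 libraries another sequencing lane than the rest, and lane and day cannot be told apart in this comparison. At days 1 and 2 no member passed in DTRADQ, beside 5.48% and 9.11% of genes, with 2 and 0 members at an unadjusted p under 0.05, 0 and 0 by DESeq2, and 2 and 1 by voom. Over all genes, voom called 790 higher and 1373 lower at day 1, and 1374 and 1603 at day 2. At day 1, Il6 and Osm had all 4 DT libraries above the 4 without DT in scaled CPM, beside 7.19% of genes. In the deposited RPKM, Il6 overlapped, at 1.575 to 3.238 at day 1 and 0.7197 to 1.783 without DT. Il6 ranged from 0.762 to 1.81 CPM without DT and gave 0.99 (95% interval 0.22 to 1.76, adjusted p = 0.1270).

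In controls, DT was followed by no called change in a tested member, beside 33.4%, 28.3% and 30.2% of genes called at days 1, 2 and 3. With only the groups compared, fewer of the 14527 genes were called: 355 higher and 535 lower at day 1, 173 and 473 at day 2, and 325 and 535 at day 3. In the reported fit, unadjusted p was under 0.05 for 0, 0 and 3 members, and DESeq2 and voom called 0 on each day. Il1rn and Il1r2 at day 3 gave 0.61 (adjusted p = 0.0943) and 0.72 (adjusted p = 0.1011), and with the replicate number as a block Il1rn passed (0.68, adjusted p = 0.0455). Without the 2 control libraries that stand apart, the same changes were 0.01 and 0.39. Tnf came closest to the threshold, at 0.62 (adjusted p = 0.0521), and at 0.54 (adjusted p = 0.2008) without those 2 libraries. It passed in 11 of 32 fits that left out 1 library, and fell to 0.14 (adjusted p = 0.6136) without control library 3 of day 3. The no-DT libraries are shared by the comparisons of the 3 days.

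Neutrophil markers moved alongside the members. Of 12 mature neutrophil markers, 1 was higher in DTRADQ at day 1, 4 at day 2 and 4 at day 3 and none was lower, with median log2 differences of 0.55, 0.73 and 0.54. Their summed level was 57100 to 81600 CPM in DTRADQ and 35300 to 60400 CPM in controls at day 1, 64500 to 89800 and 38800 to 53300 CPM at day 2, and 61300 to 83200 and 49400 to 82800 CPM at day 3. No marker of the list was at 0 in any library. The part of neutrophil number in the members' levels was not tested. Monocyte and macrophage markers differed less, with 0 higher and 1 of 12 lower on each day. Their sums did not overlap at day 2 (2290 to 2530 against 1910 to 2060 CPM). Summed neutrophil precursor markers were higher by log2 0.59, 0.83 and 0.49 on the 3 days and erythroid sums by 0.54, 0.96 and 0.76. Mature neutrophil sums were higher by 0.48, 0.71 and 0.12. The mean log2 level of the erythroid markers was lower at day 3, at 8.8 to 9.25 in DTRADQ against 9.7 to 10.1.

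Across the 32 libraries, the log2 level of Osm had a Pearson r of 0.85 with the mean of the neutrophil markers, Il1r2 0.78, Il1rn 0.74, Tnf 0.71, Il1b 0.70, Socs3 0.68 and Il6 0.35. Without control libraries 3 and 4 of the no-DT group, the values were 0.91 for Il1r2, 0.86 for Il1rn, 0.85 for Osm and 0.34 for Il6. Points share group, library depth and scaling, so these are descriptions. In the 2 libraries that stand apart, S100a8 was at its highest while Il1b and Il1rn were at or near their lowest.

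**Figure D3:**
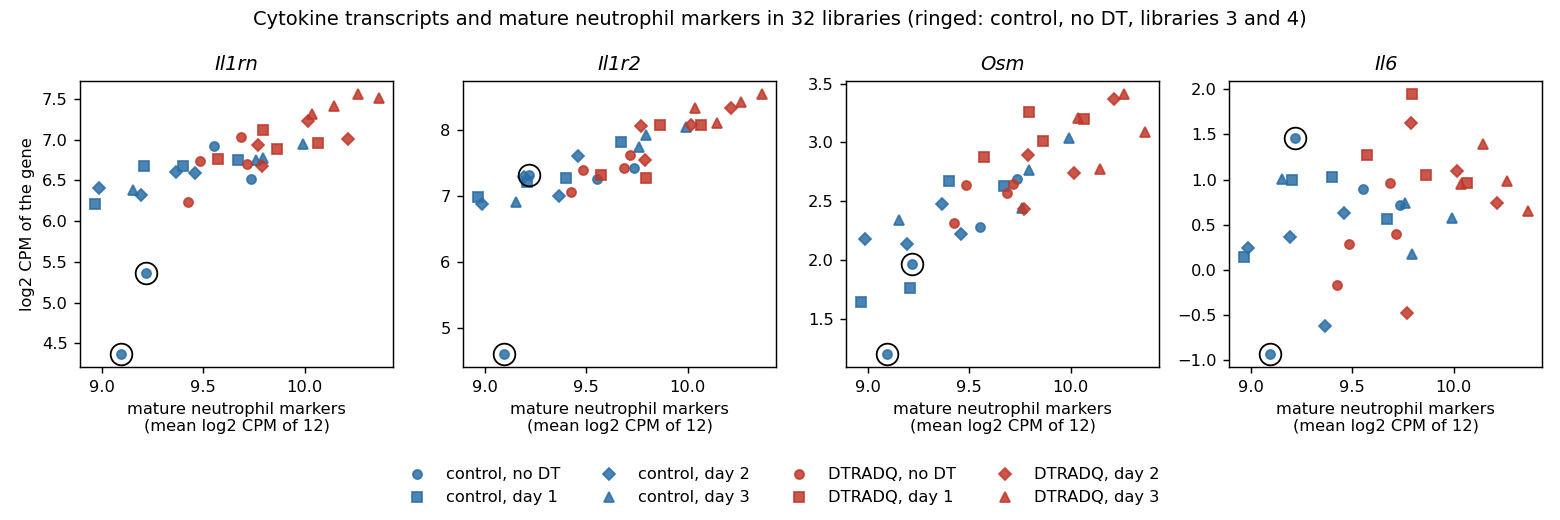
Each point is 1 library: the mean log2 CPM of 12 mature neutrophil markers (horizontal) against the log2 CPM of Il1rn, Il1r2, Osm or Il6 (vertical), with genotype by colour and time point by shape. Il1rn, Il1r2 and Osm climb with the markers, Il6 does so less (r = 0.35), and the ringed control libraries 3 and 4 without DT sit low, apart from Il1r2 and Il6 in library 3.

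The genes whose log2 levels ran most like each member over the 32 libraries were named by the highest r. For Il1rn these were Pla2g7 (0.963), C5ar1 (0.96) and Gsap (0.958), and for Il1r2 Fpr1 (0.952), Rdh12 (0.946) and Arg2 (0.944). C5ar1 and Fpr1 encode chemoattractant receptors of myeloid cells. Among the neighbours of Osm were Atxn10 (0.898) and Cxcr2 (0.892), the chemokine receptor of neutrophils. Il1b ran most like Clec4e (0.87), Fcgr2b (0.842) and Tpd52 (0.842). Without the 2 control libraries that stood apart, r was 0.886, 0.876 and 0.876 for the Il1rn neighbours and 0.896, 0.958 and 0.879 for those of Il1r2. It was 0.858 and 0.842 for the named neighbours of Osm, and 0.82, 0.791 and 0.794 for those of Il1b.

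Socs3 ran most like Bmx (0.753), Gm7160 (0.748) and Clec4d (0.746), and Tnf most like Sirpa (0.814), Acvrl1 (0.768) and Stat3 (0.768). Il6 had the loosest neighbours: Adgb (0.726), Gm3835 (0.715) and Gm8941 (0.704). Il6 values rest on 2 to 49 counts a library. Without the 2 control libraries, r was 0.781, 0.743 and 0.748 for the Socs3 neighbours, 0.81, 0.756 and 0.753 for those of Tnf, and 0.655, 0.647 and 0.68 for those of Il6.

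The other genes of these pathways were counted in lists, beside 0.888%, 4.40% and 8.80% of all genes higher in DTRADQ at days 1, 2 and 3 and 3.02%, 4.12% and 14.1% lower. In the IL1 family (12 of 14 tested), 0 genes were called between genotypes at day 1, with 2 at an unadjusted p under 0.05, 1 by DESeq2 and 3 by voom. At day 2, 2 were higher and 1 lower, and at day 3, 4 were higher and 2 lower. Il18bp, the soluble inhibitor of interleukin 18, was higher by 0.88 at day 2 (49.5 ± 3.20 against 26.9 ± 4.42 CPM, adjusted p = 0.0032) and by 0.91 at day 3. Il18rap, a chain of the interleukin 18 receptor, was higher by 0.96 and 0.78, and by 0.99 (adjusted p = 0.0018) without DT in the reported fit. That comparison includes the 2 control libraries that stood apart, and a fit of only the groups compared called 0 genes higher or lower without DT.

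Other receptors of the family were lower. Il1r1, the receptor through which IL1β signals, was lower by -1.09 at day 3 (3.18 ± 0.384 against 6.76 ± 1.26 CPM, adjusted p = 1.1e-04). Il1rl1, the receptor of interleukin 33, was lower by -1.08 at day 2 and by -1.35 at day 3. Stromal cells express Il1r1, and 8 of the 10 adiponectin-lineage markers were lower on the same day. Il1r1 differed by -0.12 at day 1 (adjusted p = 0.8173) and by -0.63 at day 2, and was called on neither day. The summed adiponectin-lineage markers were already lower then, by log2 -2.9 at day 1 and -2.7 at day 2, beside -2.3 at day 3. The part of cell loss in the Il1r1 values was not tested. In the list of IL1 maturation and signalling (14 tested) 0 genes were called at days 1 and 2, with 2 and 3 at an unadjusted p under 0.05, 0 and 0 by DESeq2 and 1 and 3 by voom. At day 3 Map3k7, the kinase TAK1, was lower (-0.72, adjusted p = 2.9e-04).

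On the IL6 side, 2 of 8 further ligands passed the filter and 0 were called on any day, with 0, 2 and 1 at an unadjusted p under 0.05, 0, 1 and 1 by DESeq2 and 0, 1 and 1 by voom. Among 7 tested receptors, 0 were called at days 1 and 2, with 2 and 1 at an unadjusted p under 0.05 and 0 by DESeq2 or voom. At day 3 Il6st, the shared gp130 chain, was lower by -0.80 (15.9 ± 2.71 against 27.7 ± 3.53 CPM, SD, n = 4, adjusted p = 3.6e-04).

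Of 10 tested JAK-STAT genes, 1 was higher at day 1, 2 at day 2, and 3 were higher and 1 lower at day 3. Cish, a STAT5-induced relative of Socs3, was higher by 1.24 at day 1 (7.42 ± 2.24 against 3.11 ± 0.964 CPM, adjusted p = 0.0052) and by 1.20 at day 2. Stat3 was higher by 0.47 at day 2 and 0.39 at day 3, and Socs2 by 0.93 at day 3. Jak2 was lower (-0.35) and Ptpn6 higher (0.58) at day 3.

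Among 17 tested STAT3 response genes, 3 were higher and 2 lower at day 1, 3 and 1 at day 2, and 4 and 2 at day 3. Timp1, an inhibitor of metalloproteinases, was higher by 1.66, 2.82 and 4.35 on the 3 days and reached 21.7 ± 5.78 CPM against 1.05 ± 0.147 CPM at day 3. Junb (1.42) and the kinase gene Pim1 (0.75) were higher at day 1, while Myc (-0.58) was lower. Pim1 was higher by 0.72 (adjusted p = 0.0049) without DT as well. Serpina3n, a serine protease inhibitor, was lower by -3.23, -3.77 and -4.33. Lcn2, also on the neutrophil precursor list, was higher by 0.94 at day 2 and 0.72 at day 3, and Lrg1 by 1.23 at day 2. Il4ra was higher by 0.66 at day 3, beside 0.47 (adjusted p = 0.0415) without DT. The values of Pim1 and Il4ra without DT include the 2 control libraries that stand apart.

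In the TNF axis (12 tested), 1 gene was lower at day 1, Lta (-2.03, with 12 counts in all 4 DTRADQ libraries and 60 in controls), and 1 was higher at day 2 and 2 at day 3. Cflar, an inhibitor of death receptor signalling, was higher by 0.40 and 0.49 on the latter days and Birc3 by 0.55 at day 3. Both were also higher without DT, Cflar by 0.34 (adjusted p = 0.0306) and Birc3 by 0.62 (adjusted p = 0.0166). These comparisons without DT include the 2 control libraries that stand apart.

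NF-kB response genes included the highest single values at day 1. Of 20 tested, 6 were higher at day 1, 4 at day 2 and 5 at day 3, and 0 were lower, with list medians of 0.37, 0.33 and 0.22. The neutrophil chemoattractant Cxcl1 was at 62.5 to 175 CPM in DTRADQ at day 1 and at 0 to 0.626 CPM in controls (16 counts in all), a log2 difference of 8.53 (adjusted p = 8.2e-05). At day 2 the difference of Cxcl1 was 5.97 with a wide spread in DTRADQ (19.1 ± 36.0 CPM). Its range there, 0.524 to 73.1 CPM, overlapped the 0.058 to 0.840 CPM of controls. Ccl2, which draws monocytes, was at 93.5 ± 43.0 against 3.15 ± 0.536 CPM at day 1 (4.89, adjusted p = 6.1e-08). It was still higher by 3.60 at day 2 (35.3 ± 35.1 against 2.88 ± 1.34 CPM) and by 2.35 at day 3. Cxcl2 was higher by 3.23 and 2.39 at days 1 and 2, and Cxcl10 by 1.79 at day 1.

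Zfp36 was higher by 0.66 at day 1 and 0.72 at day 3, and Ier3 by 0.85 at day 2 and 0.61 at day 3. Csf1 (0.89) and Nfkbia (0.54) were higher at day 3. Beside these, the log2 differences of the members at day 1, from 0.13 for Tnf to 0.85 for Osm, were small. The members and these genes come from the same libraries and the same fit.

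**Figure D4:**
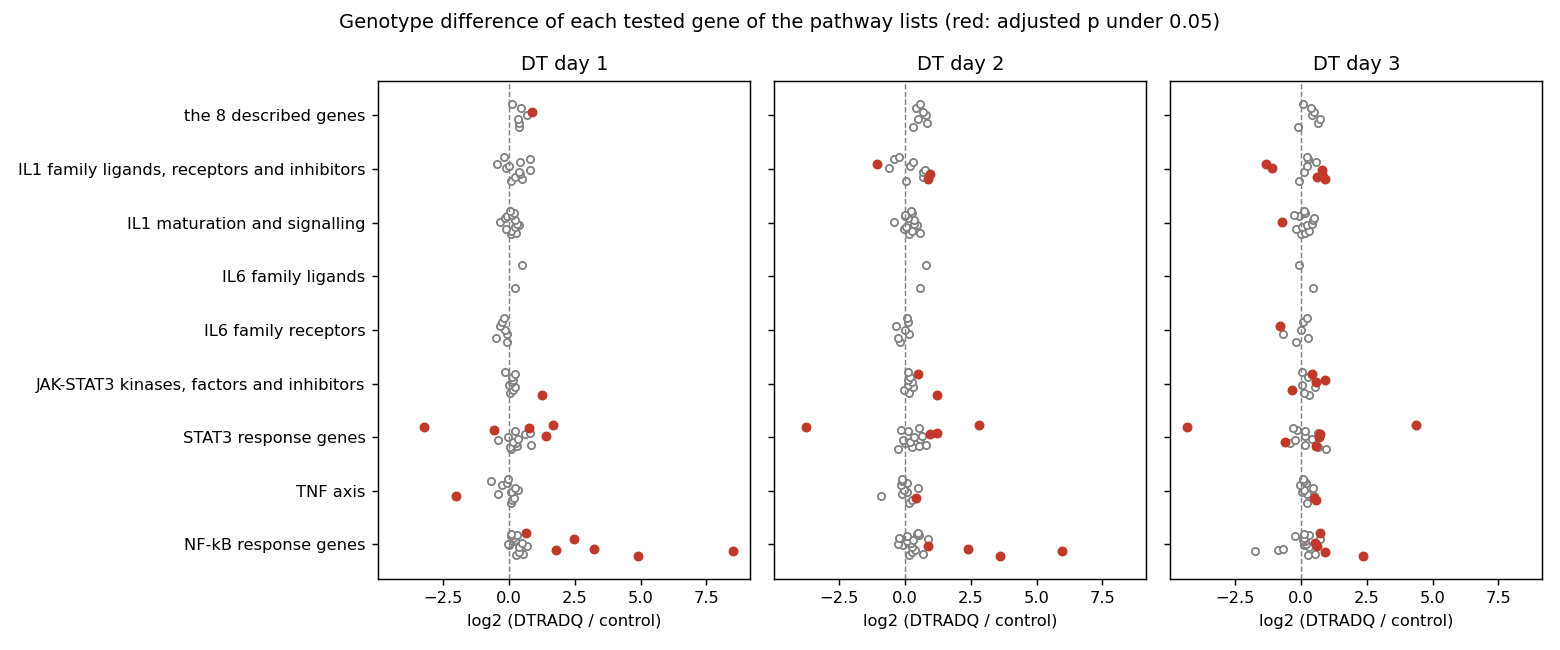
Log2 ratio of DTRADQ to controls (horizontal axis) of each tested gene in 9 lists (rows) at days 1, 2 and 3; red points have an adjusted p under 0.05 and open points do not. The members' points lie between -0.11 and 0.85, and the red points of the NF-kB row reach 8.53 at day 1.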

How the data were processed

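Femur marrow RNA of 32 mice was sequenced after library preparation with the Clontech SMARTer v1 kit, per the labels' protocols. Tools listed without roles in the submitters' processing notes are STAR 2.0.4b, featureCounts 1.45, Subread and bcl2fastq, with GRCm38 as the build. Neither the annotation version nor the treatment of strand and multi-mapped reads is given in the sources used here. Each library's table holds, per the file headers, 3 values per gene: raw counts, CPM and RPKM. The deposited CPM and RPKM values were recomputed from the deposited counts and differed by at most 4.4e-10 CPM and by a relative 3.9e-14 RPKM. Symbols were matched for 97.26% of 41388 gene IDs. Counts were used for all tests, and deposited RPKM for the order of levels between genes.

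In R 4.3.3, low genes were removed with edgeR 4.0.16 (filterByExpr, at least 10 counts), and 14527 were tested. One quasi-likelihood model held the 8 group means with TMM scaling. For each of 16 contrasts, two-sided p-values were adjusted by Benjamini-Hochberg over all genes tested, with a threshold of 0.05. SEs were derived from the log2 change and its F statistic. Lif and summed markers were compared by exact two-sided permutation tests on log2(CPM + 0.1). On simulated counts for the day 1 comparison over 14527 genes, 66% of genes changed by 2-fold and 92% of genes changed by 4-fold were recovered.

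The members and the gene lists were chosen with earlier results of these data known. Named genes are the 8 members, up to 4 called genes with the smallest p per list and day, and the 3 genes with the highest correlation to each member, of which 1 is not reported here. Alternatives were DESeq2 1.42.0, its size factors in place of TMM, all 28075 genes with a count, voom with library weights (limma 3.58.1), a fit of only the groups compared, the replicate number as a block, a pseudocount of 1, and leaving out each library. Leaving out both control libraries 3 and 4 without DT was added after the data were seen.

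The titles number the libraries 1 to 4 within a group; the labels do not explain these numbers. For same-numbered libraries of the 2 genotypes, the deviations of log2 CPM from the group mean were correlated over the genes tested. These correlations ran from -0.157 to 0.178 over 16 pairs, 6 of them over 0.1, and all 4 pairs without DT were over 0.1. No pair of libraries held the same counts.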

Additional observations from a re-analysis of the deposited data

Results flagged for a closer look

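In 6 of 64 combinations of a member and a group, 1 of the 4 libraries stood apart from the other 3 by Dixon's 95% criterion on the gap to the nearest library as a share of the group's range; chance gives such a gap in about 1 in 20 groups. Tnf in controls at day 3 had its highest library, number 3 with 14.3 CPM, at a gap of 0.912 of the range. Tnf in controls at day 2 had its lowest library, with 4.59 CPM, at 0.83. Il1r2 in controls without DT had its lowest library, number 4 with 24.1 CPM, at 0.878. Socs3 had its highest library apart in controls without DT (library 3 with 3.92 CPM, 0.876) and in DTRADQ at day 1 (library 2 with 3.94 CPM, 0.87). Il1rn in controls at day 1 had its lowest library, number 3 with 73.7 CPM, at 0.83. No cause was tested for any of these.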

How the results depend on the processing

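Calls among the 7 tested members depended on the fit. Between genotypes at day 2, where the reported fit called 0, DESeq2 called 1, voom with library weights 3, a fit of only the groups compared 4, and the fit without both control libraries 3 and 4 of the no-DT group 3. At day 3, again from 0, DESeq2, DESeq2 size factors in edgeR, no filter on low counts and the replicate block each called 1, voom 3, only the groups compared 2, and the fit without the 2 control libraries 2. Genotype by DT went from 0 to 1 at day 1 with voom and from 0 to 1 at day 3 without the 2 control libraries. DT against no DT within DTRADQ went from 0 to 2 (voom) and 1 (only the groups compared) at day 1, from 0 to 1 at day 2 with each of voom, only the groups compared and the fit without the 2 control libraries, and from 2 to 5 at day 3 with only the groups compared. Within controls at day 3, no filter and the replicate block each called 1 where the reported fit called 0. Over all 14527 genes, the fit of only the groups compared called 1421 higher and 1200 lower between genotypes at day 2, and 2270 and 2873 at day 3. Within DTRADQ it called 743 and 1012 at day 1, 1078 and 1114 at day 2, and 3001 and 3023 at day 3. The cause of these moves between fits was not tested.

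Leaving out 1 library at a time gave between 0 and 1 called members without DT and at day 1, between 0 and 2 at days 2 and 3, between 0 and 1 within DTRADQ at day 2, between 0 and 3 within DTRADQ at day 3, between 0 and 1 within controls at days 1 and 2, between 0 and 2 within controls at day 3, and 0 throughout for genotype by DT, for the changes of the genotype difference between days and within DTRADQ at day 1. At day 2, Il1r2 passed without control library 4 of the no-DT group, Osm without that library or DTRADQ library 4 of day 2, and Tnf without control library 3 of day 3. At day 3, Il1r2 passed without control library 4 of the no-DT group.

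The replicate block kept Osm at day 1 (1 member called) and 0 without DT, and called Osm beside Il1rn and Il1r2 within DTRADQ at day 3. Signs turned in the following: Il1rn without DT, at 0.59 in the reported fit, was -0.020 without the 2 control libraries. Leaving out single libraries, Tnf ran from -0.073 to 0.25 at day 1 (lowest without DTRADQ library 2) and from -0.087 to 0.55 at day 3 (highest without control library 3), Il1b from -0.044 to 0.58 at day 2 (lowest without DTRADQ library 3) and from -0.38 to 0.23 at day 3 (highest without control library 3), and Il1rn for genotype by DT at day 3 from -0.28 to 0.45 (lowest without control library 1 of the no-DT group). Over all genes, voom called 928 higher and 1222 lower at day 1, where the reported fit called 129 and 438, and 1775 and 1833 at day 2 in place of 639 and 599. At day 3 it called 2541 and 3183 in place of 1279 and 2051. At 2 to 49 counts a library, Il6 allows only wide intervals, and Lif fewer conclusions still.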
